A study of Mus musculus with 24 samples.

Results

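The T helper 2 (Th2) cytokine pathway was followed in mouse lung as 8 genes: the cytokines Il4, Il5 and Il13, the receptor chains Il4ra, Il13ra1 and Il13ra2, and the transcription factors Stat6 and Gata3. Members were the probe sets annotated to exactly 1 of these symbols. Of the 12393 genes measured, all 8 were on the array, through 15 probe sets. Each gene was read from its probe set with the highest mean log2 intensity over the 24 arrays, and the other probe sets served as a check.

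RNA of whole lung was hybridised to 24 one-colour Affymetrix arrays, 1 per mouse, in 8 groups of 3. All mice were female BALB/C aged 8 to 10 weeks, and all received intranasal instillations on days 0 and 13 and were killed 18 h after the last dose. The groups received saline, 20 ug ovalbumin (OVA, a protein allergen), 150 ug of 1 of 3 diesel exhaust particle samples named N-DEP, A-DEP and C-DEP (NDEP, ADEP and CDEP below), or 1 of these particle samples together with OVA. The 4 groups given OVA carry the label sensitized, and the other 4 do not.

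Th2 cells are helper T cells that secrete IL-4, IL-5 and IL-13 after an allergen is met, under the control of the transcription factor GATA3. IL-4 and IL-13 signal through receptors that contain the IL-4 receptor alpha chain, and the signal is carried to the nucleus by STAT6. In the airways IL-5 supports eosinophils, while IL-13 acts on epithelium and macrophages and drives mucus, chemokine and chitinase-like genes.

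The 3 cytokine genes lie in 1 cluster on chromosome 11 of the mouse reference (GRCm38.p6), so the stretch upstream of each start is shown to let the cluster be compared with the transcription factors measured here. Il4 spans chr11:53612460-53618665, Il13 chr11:53631323-53634702 and Il5 chr11:53720794-53725103. Between Il4 and Il13 lie 12.7 kb, and between Il13 and Il5 86.1 kb. The 250 bases upstream of each start are printed below 5′ to 3′ on the gene's strand, from the RefSeq promoter table of GRCm38.p6. Capitals mark matches to TTCNNNNGAA, the spacing bound by STAT6, or to any of the hexamers AGATAA or TGATAA or AGATAG or TGATAG, which contain the GATA core. Retnla, a gene induced by IL-4 and IL-13 in macrophages and epithelium, is printed as a member of the target list described further on.
Il4 upstream, chr11:53618666-53618915, minus strand: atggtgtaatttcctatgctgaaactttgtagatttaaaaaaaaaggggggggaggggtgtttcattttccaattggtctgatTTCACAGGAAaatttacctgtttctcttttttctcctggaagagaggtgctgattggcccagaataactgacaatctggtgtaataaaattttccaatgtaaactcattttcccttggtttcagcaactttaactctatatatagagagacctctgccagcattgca
Il13 upstream, chr11:53634703-53634952, minus strand: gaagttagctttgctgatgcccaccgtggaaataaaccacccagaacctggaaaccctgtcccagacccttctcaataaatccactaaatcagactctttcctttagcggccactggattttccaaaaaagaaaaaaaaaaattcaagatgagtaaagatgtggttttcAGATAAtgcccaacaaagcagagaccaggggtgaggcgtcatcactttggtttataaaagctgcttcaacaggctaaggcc
Il5 upstream, chr11:53720544-53720793, plus strand: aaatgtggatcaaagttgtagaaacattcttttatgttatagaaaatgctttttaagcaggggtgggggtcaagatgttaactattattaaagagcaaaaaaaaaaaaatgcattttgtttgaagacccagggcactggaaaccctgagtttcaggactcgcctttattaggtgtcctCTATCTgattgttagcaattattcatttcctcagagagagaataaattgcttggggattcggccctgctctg
Retnla upstream, chr16:48842359-48842608, plus strand: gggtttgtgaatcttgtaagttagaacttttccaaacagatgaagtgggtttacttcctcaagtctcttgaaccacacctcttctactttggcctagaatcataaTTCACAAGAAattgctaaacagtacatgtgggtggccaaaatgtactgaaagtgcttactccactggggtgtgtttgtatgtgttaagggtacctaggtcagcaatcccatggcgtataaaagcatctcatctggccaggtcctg

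The Il4 window held TTCACAGGAA at -167 to -158 from the start. A 2nd listed Il4 window, chr11:53617339-53617588, which does not lie at the RefSeq gene start, held TGATAG at -80 to -75. The Il13 window held AGATAA at -81 to -76. The Il5 window held CTATCT, the reverse complement of AGATAG, at -72 to -67. Of 32851 mouse promoter windows of 250 bases, searched on both strands, 5.85% held TTCNNNNGAA and 26.5% held 1 of the GATA sequences, so a GATA match near a start is common. The windows at the starts of Il4ra and Il13ra1 and the listed windows of Stat6 and Gata3 held no match to either, and that of Il13ra2 held TTATCT at -15 to -10. These are matches of letters and were not measured as binding.

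Il4, Il5 and Il13 were dim in every group. Levels were set against the 25th percentile of all probe sets of the same array, which lay between 4.45 and 4.64 log2 units, below array medians of 6.17 to 6.24. Il4, whose product steers naive T cells to the Th2 fate, lay below that percentile on all 24 arrays, at 3.48 to 4.22 log2 units. Il5, the eosinophil growth factor, also lay below it on all 24 arrays, at 4.07 to 4.55. Il13, the effector cytokine of airway epithelium, lay above it on 4 of 24 arrays and ran from 4.31 to 4.81. Background of the probes was not analysed, so a level under this percentile is not shown to differ from no transcript, and a cytokine made by few cells may lie under it.

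The arrays with Il13 above the percentile came from 3 groups. In saline lungs its log2 intensities were 4.39, 4.61 and 4.66, in OVA lungs 4.44, 4.51 and 4.42, and in NDEP lungs 4.51, 4.44 and 4.48. With NDEP and OVA they were 4.81, 4.44 and 4.65, with ADEP 4.43, 4.50 and 4.48, and with ADEP and OVA 4.52, 4.34 and 4.75. With CDEP they were 4.31, 4.36 and 4.45, and with CDEP and OVA 4.40, 4.42 and 4.35. The 4 arrays above the percentile were saline replicate 3, NDEP with OVA replicates 1 and 3, and ADEP with OVA replicate 3. The group with the highest mean, NDEP with OVA at 4.64 ± 0.18 (SD, n = 3), overlapped the saline group at 4.55 ± 0.14 (SD, n = 3), and the lowest was CDEP at 4.37 ± 0.07 (SD, n = 3).

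For Il4, the group with the highest mean, ADEP, overlapped the group with the lowest, NDEP. Il4 was 3.89, 4.10 and 3.96 with saline, 3.93, 4.04 and 3.48 with OVA, 3.99, 3.81 and 3.64 with NDEP, and 4.07, 3.96 and 3.95 with NDEP and OVA. It was 3.94, 4.04 and 4.22 with ADEP, 3.90, 4.05 and 4.08 with ADEP and OVA, 3.98, 4.15 and 3.95 with CDEP, and 4.07, 3.86 and 3.81 with CDEP and OVA. The lowest value, in OVA replicate 3, and the highest, in ADEP replicate 3, both lay under the 25th percentile of their arrays, as did Il4 on the other arrays. Il5 means ran from 4.13 ± 0.05 with ADEP to 4.39 ± 0.18 with ADEP and OVA (SD, n = 3 each), and saline lungs, at 4.29 ± 0.14, held the place next to the highest.

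The receptors and STAT6 were measured well above that percentile, apart from Il13ra2. Il4ra, the shared chain of the IL-4 and IL-13 receptors, ran from 7.43 to 8.33 log2 units and lay above the array median on all 24 arrays. Il13ra1, which pairs with it to bind IL-13, ran from 7.28 to 7.89 and also exceeded every array median. Stat6 ran from 8.37 to 8.87 and held the 84.8 to 89.1 percentile of its arrays. Gata3 lay above the 25th percentile and below the median on all 24 arrays, at 5.14 to 5.99. Il13ra2, a receptor that binds IL-13 with high affinity and is often described as a decoy, exceeded the 25th percentile on 2 arrays only, NDEP with OVA replicate 1 and ADEP with OVA replicate 2, and ran from 3.996 to 4.83.

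**Figure D1:**
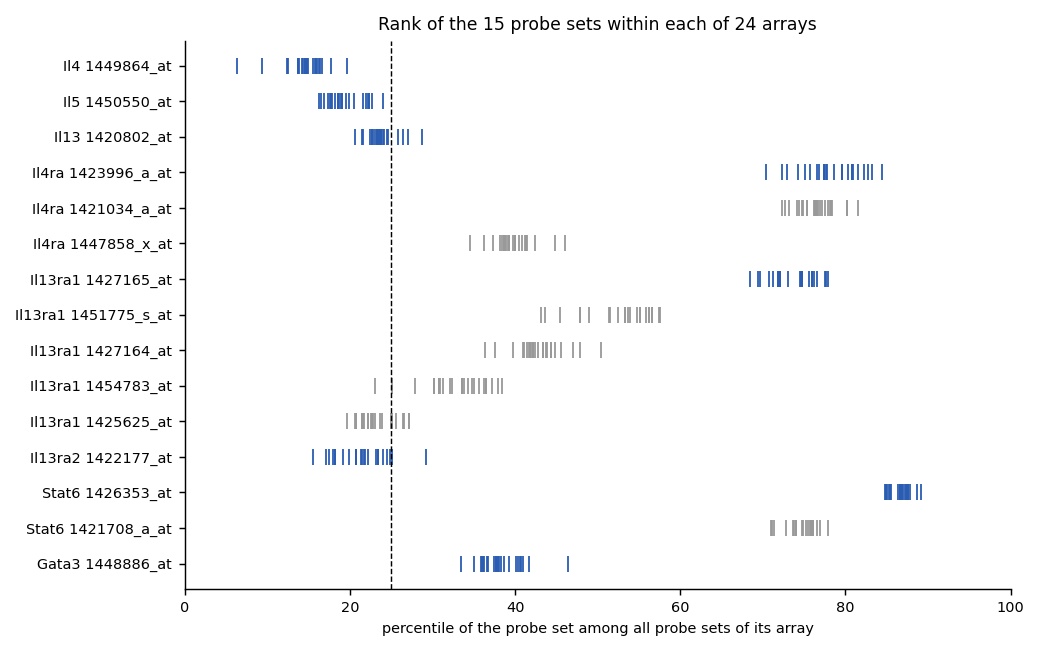
Percentile of each of the 15 probe sets among all probe sets of its array (horizontal axis, percent); each tick is 1 of 24 arrays, blue for the probe set used per gene, grey for the others, and the dashed line marks the 25th percentile. Il4 and Il5 stay left of the line on all arrays, Il13 crosses it on 4 and Il13ra2 on 2.

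Read from its chosen probe set, none of the 8 genes passed the test in any comparison. In 20 contrasts between the groups, 160 tests of single genes in limma gave 0 calls at a Benjamini-Hochberg adjusted p of 0.05, and 21 had an unadjusted p under 0.05. Of all genes, 4.56% to 21.4% had an unadjusted p under 0.05 in these contrasts, a range that holds the share of these 160 tests. The smallest adjusted p was 0.116. Log2 fold changes ran from -0.49 to 0.49. The 95% interval that reached farthest ended at 0.99, for Il4ra in the contrast of the OVA effect with ADEP and without. On the chosen probe sets, an effect of more than 1.98-fold thus lies outside the interval of each contrast. This bound does not cover the other probe sets, and 1 of Il13ra1, described below, gave larger estimates. A p that misses the threshold does not show that the groups were alike, and for the dim genes a fold change on this scale understates a change of the transcript. In this tissue fewer cells of a type and less RNA per cell cannot be told apart.

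**Figure D2:**
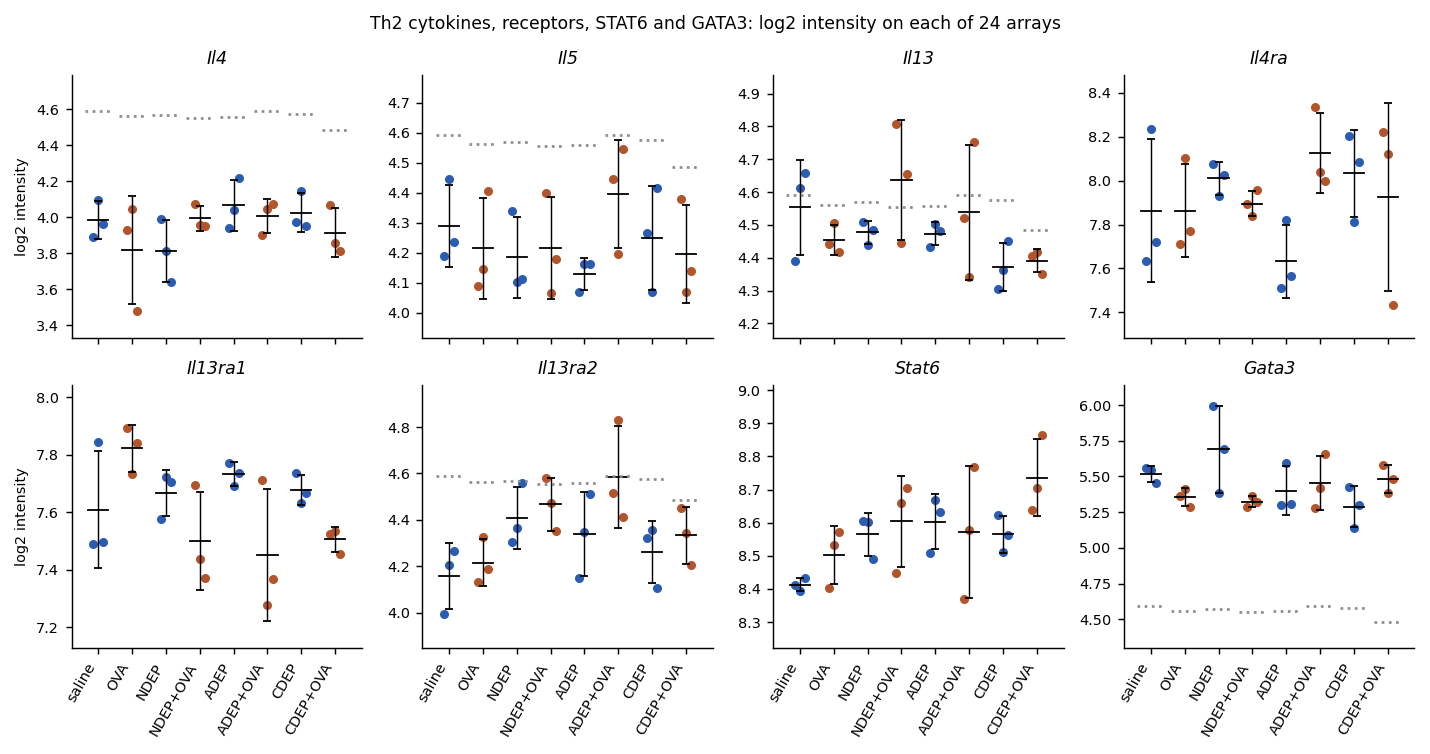
Log2 intensity (vertical axis, scale differs by panel) of the 8 genes on each array by group; points are arrays (blue without OVA, orange with OVA), black bars the group mean and SD of 3 arrays, and dotted grey lines the group's mean 25th percentile of all probe sets where it falls in the panel. Il4 and Il5 stay under the dotted lines, and the groups of each gene overlap with their neighbours in order of mean, which such an order favours.

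Over the 8 groups as a whole, the moderated F test passed for 0 of 8 genes, against 7.61% of all genes. Its smallest p-values among them belonged to Il13ra2 (limma adjusted p = 0.158) and Il13ra1 (limma adjusted p = 0.171). When the 8 groups were put in order of their means, all 7 pairs of neighbours overlapped for each of the 8 genes. Such an order sets close means side by side, so overlap of neighbours does not show a lack of change. No share over all genes is given here for overlap of arrays or its lack, so neither sets these genes apart from others. The distance from the highest to the lowest group mean was 1.19-fold for Il4, 1.20-fold for Il5 and 1.20-fold for Il13, and the largest was 1.41-fold for Il4ra, from 8.12 ± 0.18 with ADEP and OVA to 7.63 ± 0.17 with ADEP alone (SD, n = 3 each).

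The orders of the group means differed between the genes. Il13ra1 was highest with OVA alone, at 7.82 ± 0.08, and lowest with ADEP and OVA, at 7.45 ± 0.23, with all 3 groups of particle and OVA at the low end. Il13ra2 and Stat6 had saline as the lowest group, at 4.16 ± 0.14 and 8.41 ± 0.02, and ADEP with OVA and CDEP with OVA as the highest, at 4.59 ± 0.22 and 8.74 ± 0.12. Gata3 was highest with NDEP, at 5.69 ± 0.30, where replicate 1 reached 5.99, and lowest with CDEP, at 5.29 ± 0.14 (SD, n = 3 each). The highest and lowest groups did not overlap for Il5, Il4ra, Il13ra1, Il13ra2 and Stat6, and overlapped for Il4, Il13 and Gata3, but these ends were picked as the extremes of 8 groups.

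The particles alone were compared with saline to ask whether they change the pathway without allergen. NDEP changed 2.7% of all genes, ADEP 1.65% and CDEP 4.04%, and 0 of the 8 genes in each case. Of the 24 tests, 1 had an unadjusted p under 0.05, that of Il13ra2 with NDEP, beside 15.5%, 15.6% and 19.7% of all genes with NDEP, ADEP and CDEP. Il13ra2 was 4.30, 4.36 and 4.56 with NDEP and 3.996, 4.21 and 4.27 with saline, without overlap, a difference of 0.25 ± 0.12 (SE, limma adjusted p = 0.306). All 6 values lie under the 25th percentile, so this difference is between levels not shown to differ from no transcript. Stat6 was 8.41, 8.39 and 8.43 in saline lungs, the lowest and tightest group of that gene. On its chosen probe set, the 3 arrays of each particle lay above the saline arrays. The differences were 0.15 ± 0.10 for NDEP, 0.19 ± 0.10 for ADEP and 0.15 ± 0.10 for CDEP (SE, limma adjusted p = 0.494, 0.360 and 0.419). The 3 comparisons share the saline arrays. Gata3, at 5.56, 5.55 and 5.45 in saline lungs, was 5.42, 5.14 and 5.30 with CDEP, a difference of -0.23 ± 0.12 (SE, limma adjusted p = 0.313).

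The cytokines were also set against saline, on a scale that understates changes at such dim levels. Il4 differed from saline by -0.17 with NDEP, 0.08 with ADEP, 0.04 with CDEP and -0.17 with OVA. Il5 differed by -0.11, -0.16, -0.04 and -0.08 in the same order, and Il13 by -0.08, -0.08, -0.18 and -0.10. None of these 12 tests had an unadjusted p under 0.05 in limma, and the intervals ended at -0.42 and 0.34.

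OVA alone changed 0% of all genes against saline in limma, with 6.6% at an unadjusted p under 0.05, and 0 of the 8 genes at either level. Averaged over the saline, NDEP, ADEP and CDEP backgrounds, OVA changed 2.47% of all genes and again 0 of the 8. The averaged log2 effects were -0.04 for Il4, 0.04 for Il5 and 0.04 for Il13, with intervals from -0.17 to 0.17 over the 3 genes. For Il13ra2 the effect was 0.11 ± 0.06 and for Il13ra1 -0.10 ± 0.06 (SE, limma adjusted p = 0.385 and 0.386).

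**Figure D3:**
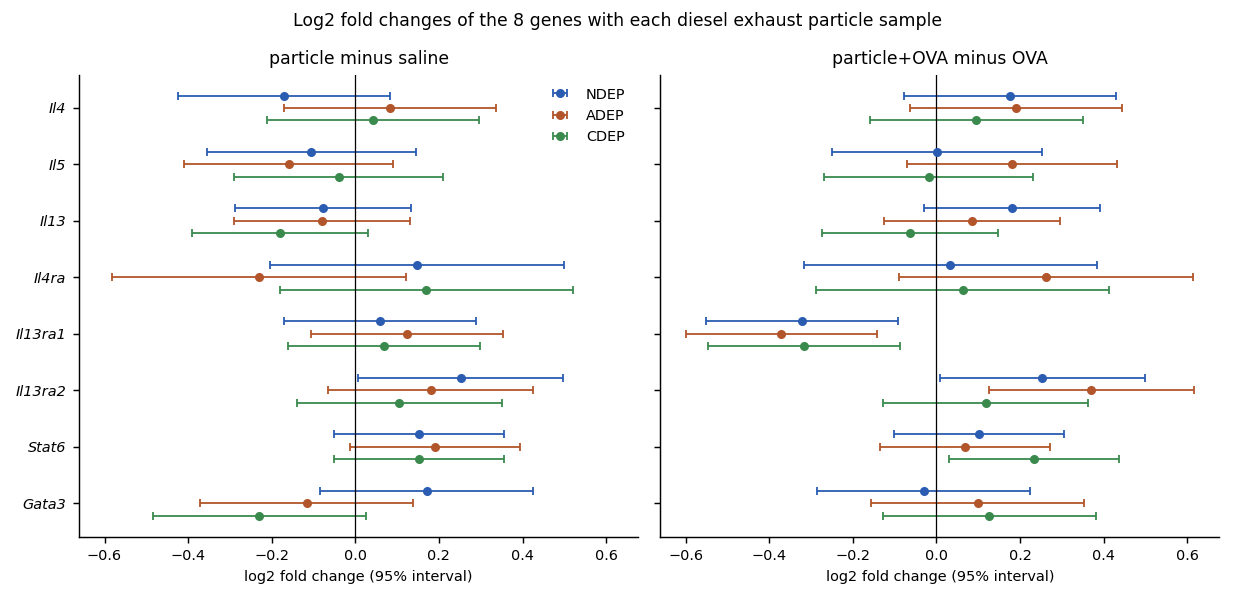
Log2 fold changes (horizontal axis) of the 8 genes for each particle sample against saline (left) and for particle with OVA against OVA (right); points are limma estimates and bars 95% intervals from the model over 24 arrays. Il13ra1 lies below 0 with all 3 particles in the right panel, by 0.32 to 0.37, with no gene past the adjusted threshold.

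On its chosen probe set, Il13ra1 was lower on all arrays with particles and OVA than on those with OVA alone. NDEP with OVA changed 2.07% of all genes against OVA alone, ADEP with OVA 0.686% and CDEP with OVA 4.79%, and 0 of the 8 genes in each. Il13ra1 was 7.89, 7.73 and 7.84 in OVA lungs. It was 7.69, 7.44 and 7.37 with NDEP and OVA, 7.71, 7.28 and 7.37 with ADEP and OVA, and 7.53, 7.53 and 7.46 with CDEP and OVA. All 9 arrays lay below the 3 OVA arrays, which are the shared controls of these comparisons. The differences were -0.32, -0.37 and -0.32 with a SE of 0.11 each (limma adjusted p = 0.164, 0.151 and 0.116). Saline lungs, at 7.49, 7.84 and 7.50, overlapped both sets. The particle by OVA interaction of Il13ra1, which asks whether OVA acts differently with the particle than without, was -0.38, -0.49 and -0.39 with a SE of 0.16 each (limma adjusted p = 0.729, 0.309 and 0.300). The interaction called 0.0242%, 0.0242% and 0.371% of all genes for NDEP, ADEP and CDEP.

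The call for Il13ra1 against OVA alone changed with the weighting of arrays and, for ADEP, with 1 array left out. With weights for array quality it passed in all 3 comparisons, at -0.36, -0.44 and -0.31 (limma adjusted p = 0.0457, 0.0117 and 0.0458). Without ADEP with OVA replicate 1 its difference from OVA was -0.50 (limma adjusted p = 0.0393). With the mean of its 5 probe sets it was not called either, and the differences were smaller, at -0.17, -0.11 and -0.06 (limma adjusted p = 0.496, 0.686 and 0.761). The 3-prime minus 5-prime difference of the Gapdh control probe sets, a sign of RNA integrity, was 0.18 ± 0.16 with OVA, 0.37 ± 0.14 with NDEP and OVA, 0.20 ± 0.09 with ADEP and OVA and 0.40 ± 0.20 with CDEP and OVA (SD, n = 3 each). With that measure and its Actb counterpart as covariates, a choice made after the data were seen, the differences were -0.25, -0.37 and -0.24.

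The other probe sets of Il13ra1 shared the pattern of the chosen one in part. Against OVA alone, 1451775_s_at differed by -0.35 with NDEP and OVA, -0.19 with ADEP and OVA and -0.01 with CDEP and OVA, and 1427164_at by -0.22, 0.01 and -0.03. The means of 1454783_at went the other way, at 5.02 with OVA and 5.19, 5.04 and 5.21 with the same particles and OVA. Those of the dim 1425625_at were 4.56 with OVA and 4.42, 4.52 and 4.42 with the same particles and OVA. The interactions of 1451775_s_at were -0.87, -0.66 and -0.58 with a SE of 0.20 each (limma adjusted p = 0.155, 0.326 and 0.176), of the same sign as those of the chosen probe set and larger. Its correlation with the chosen one and those of the others over 24 arrays, given as a description, were 0.50 for 1451775_s_at, 0.52 for 1427164_at, -0.12 for 1454783_at and 0.16 for 1425625_at, and all share the same RNA extracts. In the fit of all probe sets, 1451775_s_at was higher with CDEP than with saline by 0.57 ± 0.14 (SE, limma adjusted p = 0.0255), and passed the F test (limma adjusted p = 0.0220). It was 6.63 ± 0.05 with CDEP and 6.06 ± 0.23 with saline (SD, n = 3 each). In that fit 1427164_at was lower with OVA averaged over the backgrounds by -0.23 ± 0.06 (SE, limma adjusted p = 0.0494). The chosen 1427165_at differed from saline by 0.07 with CDEP. What each probe set of this gene detects was not analysed here.

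**Figure D4:**
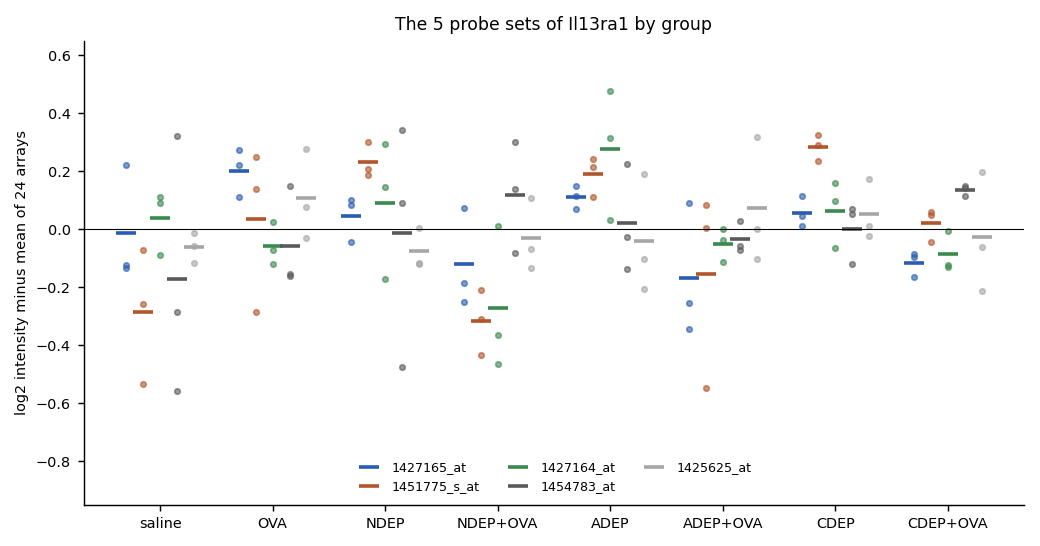
Log2 intensity of the 5 Il13ra1 probe sets minus each probe set's mean over 24 arrays (vertical axis) by group; points are arrays and bars group means of 3. The chosen 1427165_at (blue) is highest with OVA alone, whereas 1451775_s_at (orange) is highest with CDEP and low with saline and with NDEP and OVA.

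The probe sets of the other receptors and of Stat6 differed as well. For Il4ra, the 2 brightest probe sets had a correlation of 0.79 over 24 arrays, and the dimmer 1447858_x_at one of 0.04 with the chosen probe set. For Stat6 the correlation of both probe sets was 0.19. The other one, 1421708_a_at, ran from 7.44 to 7.62 with saline and from 7.43 to 7.77 with ADEP, which overlapped. With NDEP, at 7.78 to 7.79, and with CDEP, at 7.76 to 7.85, it lay above saline. With CDEP and OVA it ran from 7.67 to 7.79 and overlapped OVA alone, at 7.62 to 7.74.

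Il13ra2 with OVA alone did not overlap the arrays with OVA and ADEP or OVA and NDEP, and overlapped those with OVA and CDEP. It was 4.13, 4.33 and 4.19 with OVA, 4.52, 4.83 and 4.41 with ADEP and OVA, and 4.58, 4.47 and 4.35 with NDEP and OVA, both without overlap. The differences were 0.37 ± 0.12 and 0.25 ± 0.12 (SE, limma adjusted p = 0.180 and 0.406). With array weights the first was 0.48 (limma adjusted p = 0.0156). In each of these comparisons 5 of the 6 arrays lay under the 25th percentile. Stat6 with CDEP and OVA, at 8.64, 8.70 and 8.87, lay above OVA alone, at 8.40, 8.53 and 8.57, by 0.23 ± 0.10 (SE, limma adjusted p = 0.207).

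Each particle with OVA was also set against the same particle alone. NDEP with OVA changed 0.274% of all genes against NDEP, ADEP with OVA 0.0646% against ADEP and CDEP with OVA 3.58% against CDEP, with 0 of the 8 genes in each. Il4ra was 8.33, 8.04 and 8.00 with ADEP and OVA and 7.51, 7.82 and 7.57 with ADEP, without overlap, a difference of 0.49 ± 0.17 (SE, limma adjusted p = 0.343). Its other probe sets overlapped between these groups. With ADEP and OVA, 1421034_a_at ran from 7.694 to 8.09, and with ADEP from 7.52 to 7.698. For 1447858_x_at the ranges were 5.36 to 5.75 and 5.31 to 5.49. Il5 was 4.44, 4.19 and 4.55 against 4.07, 4.16 and 4.16 in the same groups, a difference of 0.27 ± 0.12 (SE, limma adjusted p = 0.485), all under the 25th percentile. Gata3 was 5.29, 5.36 and 5.32 with NDEP and OVA and 5.99, 5.39 and 5.69 with NDEP, a difference of -0.37 ± 0.12 (SE, limma adjusted p = 0.299).

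The 3 particle samples were compared with each other at the same dose. Without OVA, CDEP against ADEP and CDEP against NDEP each changed 0% of all genes, with 6.68% and 5.92% at an unadjusted p under 0.05, and NDEP against ADEP changed 0.00807%. With OVA, CDEP against ADEP changed 1.43%, CDEP against NDEP 0.00807% and NDEP against ADEP 0.0161%. In these 6 comparisons 0 of the 8 genes passed. Gata3 with CDEP differed from NDEP by -0.40 ± 0.12 (SE, limma adjusted p = 0.588), where the arrays overlapped. Il4ra with CDEP differed from ADEP by 0.40 ± 0.17 (SE, limma adjusted p = 0.703). Il13 with CDEP and OVA lay below NDEP and OVA without overlap, by -0.24 ± 0.10 (SE, limma adjusted p = 0.617).

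For the 4 members above the 25th percentile on all arrays, the genes most alike were those with the highest Pearson correlation over 24 arrays, given as a description over arrays that share groups and hybridisations. For Il4ra these were led by Sh2b3 (0.84), Tcf25 (0.83) and Dok4 (0.82). For Il13ra1 they were led by Lgals12 (0.72) and Acat1 (0.70), and for Gata3 by Tm6sf2 (0.78) and Cdipt (0.77). For Stat6 the 5 genes were Hsp90aa1 (0.78), Hspd1 (0.77), Edem1 (0.76), Ahsa1 (0.76) and Stip1 (0.75), of which Hsp90aa1, Hspd1, Ahsa1 and Stip1 encode chaperones or their helpers.

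Genes known to respond to IL-13 and STAT6 changed in groups where the cytokines did not pass. Of 26 such genes measured, 0 were called with OVA alone against saline in limma (1 with an unadjusted p under 0.05), beside 0% of all genes. With OVA in all groups compared, 19 were higher with NDEP and OVA, 7 with ADEP and OVA and 23 with CDEP and OVA than with OVA alone, and 0 were lower. Of all genes, 2.07%, 0.686% and 4.79% were called there in either direction. The list medians were 1.06, 0.68 and 1.44 log2 units, beside 0.02, 0.03 and -0.01 over all genes, and the members' own medians were 0.07, 0.14 and 0.08. Clca1, a goblet cell gene, was 11.96, 11.51 and 12.33 with CDEP and OVA and 6.79, 3.80 and 9.29 with OVA, without overlap. Chil4, a chitinase-like gene, was 8.10 ± 0.92 against 4.48 ± 0.13 (SD, n = 3 each), where 1 of 3 OVA arrays lay above the 25th percentile. Ccl11, the eosinophil chemokine eotaxin, was 5.65 ± 0.21 against 4.26 ± 0.10 (SD, n = 3 each), and OVA lungs lay under the 25th percentile. Without OVA, 5 genes of the list were higher with NDEP, 1 with ADEP and 3 with CDEP than with saline, and 0 were lower. Of all genes, 2.7%, 1.65% and 4.04% were called there in either direction, so the count of 1 with ADEP lies near the background. Slc26a4, an epithelial anion exchanger, was higher with each particle, by 5.36-, 3.02- and 4.17-fold (limma adjusted p = 4.21e-05, 0.00754 and 0.00066). Ccl17, a chemokine that attracts Th2 cells, and Fcer2a, the low-affinity IgE receptor, were higher with NDEP and CDEP, and Ccl22, a chemokine for the same receptor as Ccl17, was called with NDEP. Against the same particle alone, 10, 4 and 16 genes of the list were higher with NDEP, ADEP and CDEP, and 17 were higher with OVA averaged over the backgrounds. The shares of all genes called in these comparisons were 0.274%, 0.0646%, 3.58% and 2.47%. The comparisons with OVA alone share their controls. Of the 26 list genes, 17 had a promoter entry, and 4 of these held TTCNNNNGAA (23.5%, beside 6.76% of all genes): Ccl17, Fcer2a, Retnla and Pdcd1lg2. The matches of Ccl17 and Fcer2a lay in windows not at the RefSeq gene start. Pdcd1lg2 was not called with OVA alone against saline, nor with any particle and OVA against OVA alone. Whether STAT6 acts on these genes here was not tested.

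**Figure D5:**
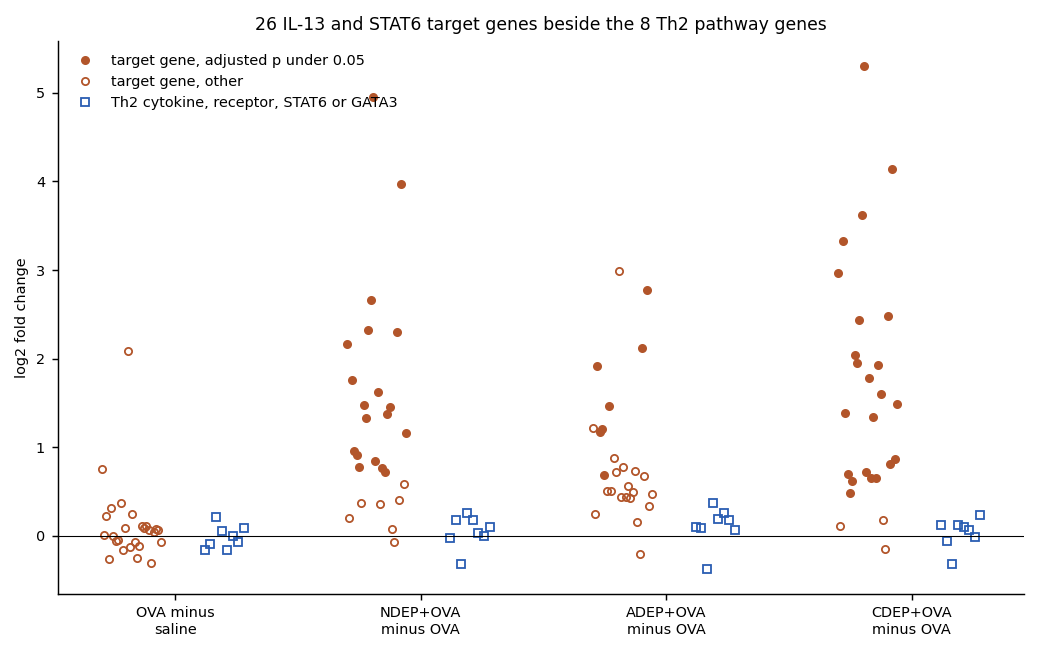
Log2 fold changes (vertical axis) of 26 IL-13 and STAT6 target genes (orange circles, filled where the limma adjusted p is under 0.05) and of the 8 Th2 pathway genes (blue squares) in 4 comparisons. Filled circles number 0, 19, 7 and 23 from left to right, and the 8 pathway genes lie between -0.37 and 0.37 throughout.

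Fewer signalling partners and inducers of the pathway were called. The shares of all genes called were 2.7%, 1.65% and 4.04% with NDEP, ADEP and CDEP against saline, and 2.07%, 0.686% and 4.79% with OVA against OVA alone, so counts of 0 or 1 in the lists that follow lie near the background. Of 16 measured receptor and signalling partners, 1 was called higher with NDEP, 0 with ADEP and 1 with CDEP against saline, and 2, 0 and 6 with the same particles and OVA against OVA. Csf2rb, the beta chain shared by the receptors of IL-5, IL-3 and GM-CSF, was higher by 0.81 ± 0.20 with NDEP and 0.79 ± 0.20 with CDEP (SE, limma adjusted p = 0.0221 and 0.0251). Socs1, an inhibitor induced by cytokine signals, was 6.02 ± 0.41 with CDEP and OVA and 5.25 ± 0.08 with OVA (SD, n = 3 each). Of 24 measured Th2 inducers and Th2 cell genes, 4 were higher with NDEP, 2 with ADEP and 3 with CDEP against saline, and 1, 0 and 2 with OVA against OVA alone. Il33, an epithelial alarmin that activates Th2 and innate lymphoid cells, was 6.10 ± 0.36 in saline lungs and 7.76 ± 0.22 with NDEP, 7.69 ± 0.21 with ADEP and 7.50 ± 0.30 with CDEP (SD, n = 3 each), a rise of 3.16-, 3.01- and 2.64-fold. Of 13 measured Th1 and Th17 genes, 2 were higher with each particle, Il17ra and Stat3. With OVA against OVA alone, Ifngr2, a chain of the interferon gamma receptor, was higher with ADEP and with CDEP, by 0.54 in both (limma adjusted p = 0.0422 and 0.0131), and 0 genes of that list were called with NDEP.

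Markers of the tissue and of the cells that make or receive these cytokines were read on the same arrays. All 10 markers of lung epithelium and endothelium lay above the 25th percentile on all 24 arrays, and 8 of 11 T cell markers did so, with Cd3e at 6.82 to 7.22 log2 units. T cell markers summed to 523 to 713 intensity units with saline, 735 to 770 with NDEP, 601 to 702 with ADEP and 603 to 681 with CDEP. They summed to 603 to 670 with OVA and 624 to 757 with NDEP and OVA. With ADEP and OVA they summed to 567 to 696, and with CDEP and OVA to 623 to 765. Of the particle groups, only the one given NDEP alone lay above its controls without overlap. Of 6 eosinophil markers, Epx, Prg2, Ccr3, Siglecf and Il5ra lay below the percentile on all 24 arrays and Prg3 was above it on 2. Neutrophil markers, of which 8 of 9 lay above the percentile on all arrays, summed to 1296 to 1696 with saline, 2325 to 3074 with NDEP, 2179 to 3333 with ADEP and 2418 to 2500 with CDEP. They summed to 1000 to 1729 with OVA, 1845 to 3192 with NDEP and OVA, 1490 to 2492 with ADEP and OVA and 2521 to 2660 with CDEP and OVA, so of the particle groups the one given ADEP and OVA overlapped its controls. Of all genes, 2.7%, 1.65% and 4.04% were called with NDEP, ADEP and CDEP against saline. With OVA against OVA alone the shares were 2.07%, 0.686% and 4.79%. Of 7 macrophage and monocyte markers, 2 were called higher with NDEP, 0 with ADEP and 1 with CDEP against saline, and 1, 0 and 2 with OVA against OVA alone. Their summed intensity, in which bright markers weigh most, was 7292 to 9733 with saline and 9624 to 10723 with NDEP. It was 8460 to 9074 with OVA and 7684 to 9159 with CDEP and OVA. Their mean log2 was 7.22 to 7.48 with saline, 7.85 to 7.89 with NDEP, 7.47 to 7.56 with ADEP and 7.63 to 7.73 with CDEP. With OVA it was 7.20 to 7.431, with NDEP and OVA 7.59 to 8.03, with ADEP and OVA 7.49 to 7.65, and with CDEP and OVA 7.435 to 7.86. Of 9 heart muscle markers, 8 were lower with CDEP and OVA than with OVA, and their summed intensity was 2580 to 3769 against 6127 to 7034. The part of these markers in the results was not tested directly, and with heart and fat markers as covariates, added after the data were seen, 18 of the 26 target genes passed in that comparison, and 0 of the 8 members.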

How the data were processed

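The authors deposited 1 intensity value per probe set and array. Per the submitters' processing notes these came from RMA, which corrects background, normalizes arrays to each other and summarises probes. Its version is not given in the sources used here. Per the labels' protocols, biotinylated cRNA was prepared from 2 ug RNA. The test had been planned for log2 values, but the deposited intensity values are linear, with array medians of 72.2 to 75.5, so log2 was taken first.

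Of 22690 probe sets, 20380 had 1 gene symbol, and 1 per gene (highest mean) left 12393 genes. limma 3.58.1 in R 4.3.3 fitted 8 group means to 24 arrays (16 residual and 8.16 prior degrees of freedom), two-sided, with Benjamini-Hochberg adjustment over all genes within each of 21 comparisons at 0.05. The step was tested on simulated data. Python 3.11.15, pandas 2.3.3 and matplotlib 3.10.9 did the rest. With 3 arrays a group, their number limits the precision.

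The members and all gene lists were chosen with earlier results of these data known. Named genes are the 8 members and up to 4 list genes with the smallest p per comparison. Retnla and the single target values outside this rule were named after their values were seen. Alternatives were other probe sets, filters, a floor, normalization, array weights, variance models, fewer groups, a replicate block and each array left out.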

Additional observations from a re-analysis of the deposited data

Results flagged for a closer look

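Among the IL-13 and STAT6 target genes, 6 results were flagged in which the effect of OVA differed with the particle. The measure was the interaction term of the limma model. At most 4 genes per list and comparison were named, so 6 is not a count of all target genes with such an interaction. For Chil4 the interaction was 2.75 with NDEP and 3.54 with CDEP (log2, limma adjusted p = 0.00177 and 1.83e-05). For Ccl11 it was 1.32 with ADEP and 1.33 with CDEP (limma adjusted p = 0.00543 and 0.00109). For Muc5ac and Arg1 it was 1.70 and 3.10 with CDEP (limma adjusted p = 0.00126 and 0.00151). Chil4 and Ccl11 lay near or under the 25th percentile of the array in the groups without particles and OVA together, and Arg1 lay under it on every array of those groups. The sizes of the interactions of Chil4, Ccl11 and Arg1 thus rest on dim levels. Muc5ac lay above the percentile on the arrays of every group. The interactions share the saline and OVA arrays. None of the 8 Th2 pathway genes had an interaction past the threshold.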

How the results depend on the processing

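With each gene read from its chosen probe set or the mean of its probe sets, the 21 counts of members called stayed at 0 under the alternatives run, apart from array weights and 1 array left out. Read from other probe sets, Il13ra1 was called for CDEP against saline and in the F test (1451775_s_at, limma adjusted p = 0.0255 and 0.0220) and for OVA averaged (1427164_at, limma adjusted p = 0.0494). With array weights 1 member was called for NDEP with OVA against OVA, 2 for ADEP with OVA, 1 for CDEP with OVA, 1 for the ADEP by OVA interaction and 2 in the F test: Il13ra1 in each, and Il13ra2 for ADEP with OVA and in the F test. With each array left out in turn the counts were 0, except ADEP with OVA against OVA at 0 to 1, where 1 member passed without ADEP with OVA replicate 1. A floor at the 25th percentile replaced all 6 Il13ra2 values of NDEP against saline and 5 of 6 of NDEP with OVA against OVA, so the differences of -0.0217 and -0.00645 are mainly those of the percentiles. Against the array median, Il13 and Il13ra2 lay above on 0 arrays and Gata3 on 0. Probe set 1425625_at of Il13ra1 exceeded the 25th percentile on 7 arrays.

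The counts of target genes were 6 to 12 for ADEP with OVA, 17 to 23 for CDEP with OVA, 12 to 20 for NDEP with OVA, 17 to 19 for OVA averaged and 0 for OVA alone with 1 array left out. They were 11 for NDEP with OVA with only the compared groups in the fit, 12 for that comparison without OVA replicate 2, 12 for ADEP with OVA with array weights and 12 without ADEP with OVA replicate 1. With heart and fat markers as covariates, chosen after the data were seen like all alternatives of the target counts, OVA averaged gave 10. The causes were not tested.

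Replicate numbers were shared by the groups. Correlations of residuals with the same number had medians of -0.00458, 0.0429 and 0.0519, beside -0.00576, -0.0176 and -0.00829 with other numbers. Those with the same number ran from -0.32 to 0.35. No clear pairing of the arrays was seen, and a weak one is not excluded. With a replicate block 0 members were called in the 21 comparisons, and 19, 7 and 23 target genes for NDEP, ADEP and CDEP with OVA. The filter on dim genes removed Il4, Il5 and Il13ra2. Nothing in the labels beyond 1 mouse per array ties arrays to a batch. Spot background was not analysed, which limits what can be said of the dim cytokines.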
